A study of Mus musculus with 11 samples.

Results

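Regions at 4 genes of the transforming growth factor β (TGF-β) pathway, *Tgfb2*, *Tgfb3*, *Ltbp1* and *Ski*, were examined for histone H3 lysine 27 acetylation (H3K27ac) in atrial cardiomyocytes (CMs) of *Tbx5*G125R/+ and control mice. The deposited table lists the 1652 regions with a significant genotype difference in the authors' own test. For each region it gives a 500 bp bin that its headers mark as the top significant bin, named the top bin here. A region was taken when the midpoint of its top bin lay inside a member gene or within 100 kb of it, and when that gene was the nearest protein-coding gene in RefSeq. This gave 5 of the 1652 regions, 1 at *Tgfb2*, 1 at *Tgfb3*, 2 at *Ltbp1* and 1 at *Ski*. No top bin within 100 kb of these genes had its midpoint closer to another protein-coding gene.

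H3K27ac was profiled by CUT&RUN, in which an antibody leads a nuclease to the marked chromatin and the fragments cut out are sequenced. There were 6 libraries of *Tbx5*G125R/+ mice, in which a missense change was introduced into 1 allele of the gene for the T-box transcription factor Tbx5, and 5 libraries of mice labelled only as control. All mice were 8 to 12 weeks old, left and right atria were pooled, and nuclei were sorted for pericentriolar material 1 (PCM1), a protein found around CM nuclei. The top bins held 43183 to 161738 reads per *Tbx5*G125R/+ library and 27118 to 72442 reads per control library. One read was worth 0.489 to 2.19 normalised reads in *Tbx5*G125R/+ libraries and 0.681 to 1.95 in control libraries.

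TGF-β ligands are secreted in a latent form. The propeptide of each ligand stays bound to it and is linked to a latent TGF-β binding protein such as Ltbp1, which anchors the complex in fibrillin-rich matrix until integrins or proteases release the ligand. Receptors then phosphorylate Smad2 and Smad3, which enter the nucleus with Smad4, where the corepressor Ski binds them and restrains transcription of their targets. In the heart TGF-β2 is known for its part in valve and septum formation, and the pathway as a whole for fibroblast activation and fibrosis.

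All 5 regions were selected on the difference in signal between the genotypes in these same libraries, measured by the authors' test. Differences between *Tbx5*G125R/+ and control at these regions are therefore given as a description, and no test of them is reported. Levels are normalised reads, in which the read count of a top bin was divided by the size factor of its library.

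The 5 regions lay at different places relative to their genes, and none held the annotated start of *Tgfb2*, *Ltbp1* or *Ski*. Coordinates are those of mouse build mm10 (GRCm38), and the tables used here give gene bodies and starts, so exons and introns were not resolved. The *Tgfb2* region spanned chromosome 1 from 186579251 to 186591750, and its top bin was 33.0 kb beyond the 3′ end of the gene and 116 kb from its start. It overlapped another gene, the long noncoding RNA gene *Gm35546* (186587322 to 186614509), whose start lay within the region, 2.43 kb before the centre of the top bin. The *Tgfb3* region was on chromosome 12 from 86054501 to 86055750, in the gap between *Tgfb3* and the tubulin-modifying enzyme gene *Ttll5*. The midpoint of its top bin was 1.24 kb from *Tgfb3* and 1.74 kb from *Ttll5*, so that its assignment to *Tgfb3* rests on a small difference in distance. Measured from the edges of the whole region, *Ttll5* (ending at 86053760) was nearer than *Tgfb3* (from 86056743), and the region then fell to *Ttll5*. *Ttll5* held listed regions of its own, beyond 100 kb from *Tgfb3*, that were higher in *Tbx5*G125R/+ too. Their top bins averaged 21.8 and 36.3 normalised reads in *Tbx5*G125R/+, against 1.24 and 0 in control. Both *Ltbp1* regions lay inside the gene on chromosome 17. RefSeq gives *Ltbp1* an outer start and an inner start, from which the long and the short form of the protein are made. One region (75118251 to 75120250) lay between the starts, with its top bin 114 kb after the outer and 59.0 kb before the inner start, and the other (75181001 to 75182250) had its top bin 2.72 kb after the inner start. The *Ski* region lay inside the gene on chromosome 4 from 155181751 to 155209750, with its top bin 17.0 kb after the gene start.

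**Figure D1:**
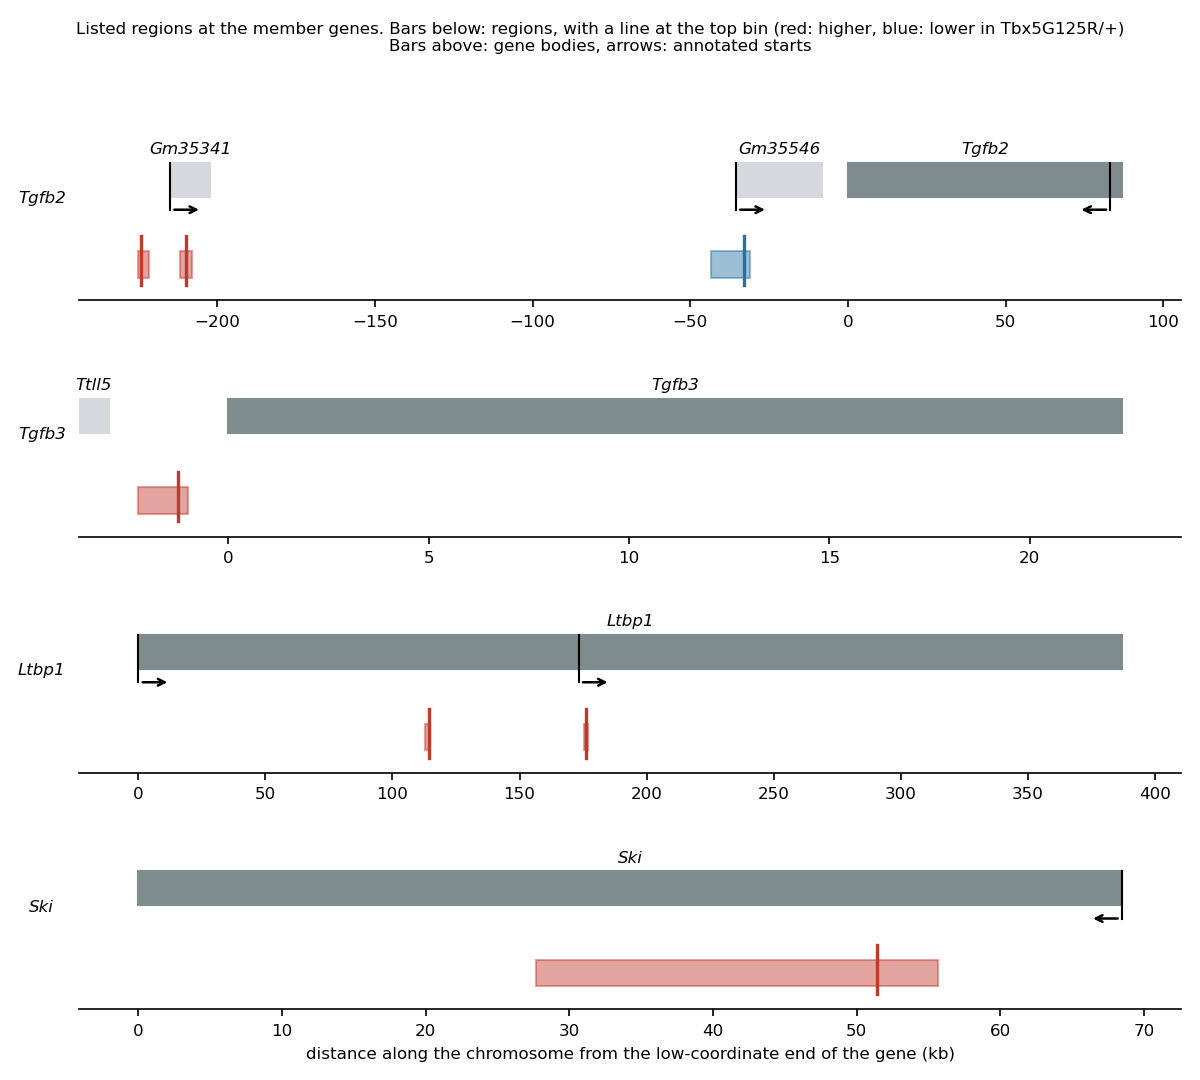
Map of the listed regions at *Tgfb2*, *Tgfb3*, *Ltbp1* and *Ski*. The x axis of each panel is the distance in kb from the low-coordinate end of that gene, drawn to its own scale. Grey bars are gene bodies (light grey: other genes), arrows are annotated starts, and coloured bars are regions with a line at the top bin, red where *Tbx5*G125R/+ was higher and blue where it was lower. The region nearest to *Tgfb2* is blue and covers the start of *Gm35546*, and the inner start of *Ltbp1* lies 2.72 kb before a red top bin. No start of *Tgfb3* is drawn, since its start was not among those used here.

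The regions were broad at *Ski* and *Tgfb2* and narrow elsewhere. The *Ski* region was 28000 bp wide, wider than 97.8% of the listed regions, and the *Tgfb2* region 12500 bp, wider than 90.9%. The *Tgfb3* region and the *Ltbp1* region after the inner start were each 1250 bp wide, and the other *Ltbp1* region was 2000 bp, against a median of 3000 bp over all listed regions. A top bin is therefore a small part of the *Ski* and *Tgfb2* regions, and reads per library outside the top bin were not analysed here.

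Both starts that lie inside or next to a region are shown by their upstream sequence, since each lies within 2.72 kb of a top bin, and the start of *Tgfb3* was not looked at. Each run is the 250 bases before the start on the plus strand, from RefSeq (GRCm38.p6), at chr1:186587072-186587321 for *Gm35546* and chr17:75178531-75178780 for the inner start of *Ltbp1*. Capitals mark the matches on either strand to the SMAD box CAGAC and to the motif of GATA factors, AGATAA.
Gm35546: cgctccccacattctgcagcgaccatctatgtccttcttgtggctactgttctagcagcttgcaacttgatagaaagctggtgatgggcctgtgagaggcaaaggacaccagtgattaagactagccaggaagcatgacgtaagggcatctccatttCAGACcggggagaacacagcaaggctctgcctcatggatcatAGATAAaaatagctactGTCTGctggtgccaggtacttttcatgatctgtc
Ltbp1 inner start: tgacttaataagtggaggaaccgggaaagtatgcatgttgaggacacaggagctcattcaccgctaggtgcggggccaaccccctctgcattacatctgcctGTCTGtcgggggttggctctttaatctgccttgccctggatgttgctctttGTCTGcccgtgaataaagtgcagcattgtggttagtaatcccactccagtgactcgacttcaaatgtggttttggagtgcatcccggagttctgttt

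Each of these runs held 2 matches to the SMAD box, the short element that Smad3 and Smad4 contact, and the *Gm35546* run held 1 match to the GATA motif. Of all 32851 start windows of this length, 42.2% held at least 1 SMAD box and 9.99% at least 1 GATA motif, so neither match is rare. The T-box motif GGTGTGA, found in 3.33% of all windows, had no match in either run, and neither had MEF2 (2.92%), the GC box GGGCGG (32.7%), the motif of Krüppel-like factors, CCACCC (28.1%), and the TEAD motif CATTCC (12.6%). The matches in these runs share no bases with each other. A match is a string of letters and not a bound site, and the top bins themselves lie outside these windows.

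The 5 regions did not share a direction. *Tgfb2* was lower in *Tbx5*G125R/+ CMs, and *Tgfb3*, *Ltbp1* at both places and *Ski* were higher. In 4 of the 5 bins, all those with a higher level, the lowest *Tbx5*G125R/+ library stood above the highest control library. Over the whole table this held for 73.2% of the regions, and the reverse, with the highest *Tbx5*G125R/+ library below the lowest control library, for 15.1%. Since the table is made of called regions, nothing can be read from the member count beyond this description. Of all top bins 81.1% had a higher and 18.9% a lower mean level in *Tbx5*G125R/+. Scaling the listed bins by the trimmed mean of M values (TMM) in place of the deposited size factors moved all log2 ratios by a median of -1.75. This scaling assumes that most bins do not differ, whereas the table holds called regions only. Under it the 5 bins kept their direction, and the genotypes no longer overlapped at *Tgfb2*, whereas at *Ski* and in both *Ltbp1* bins they came to overlap.

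**Figure D2:**
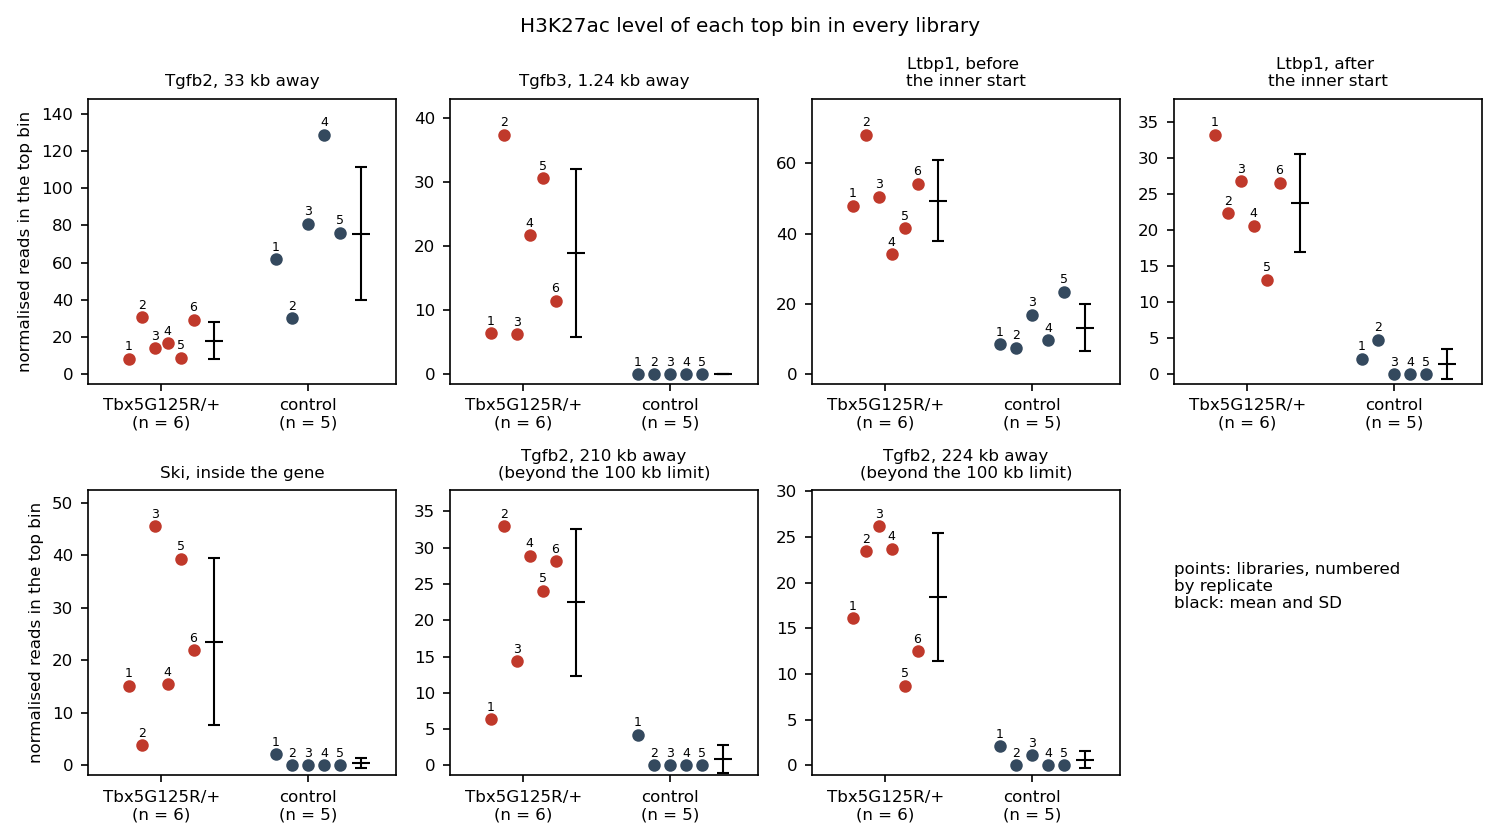
H3K27ac level of the top bin in every library. The y axis is normalised reads in the top bin, points are libraries numbered by replicate (*Tbx5*G125R/+ red, n = 6, control dark, n = 5), and black marks are the mean and SD. The *Tgfb2* bin 33.0 kb from the gene is lower in *Tbx5*G125R/+ with replicate 2 of both genotypes at the same height, whereas in the other bins all *Tbx5*G125R/+ points lie above all control points.

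*Tgfb2* encodes one of the TGF-β ligands. Its top bin had 8.32, 30.7, 13.7, 16.5, 8.75 and 29.2 normalised reads in *Tbx5*G125R/+ replicates 1 to 6, against 61.8, 30.0, 81.0, 129 and 76.1 in control replicates 1 to 5. Control replicate 2 was the lowest control and stood 0.748 normalised reads below *Tbx5*G125R/+ replicate 2, the highest of its genotype, so the groups overlapped by this single pair. The mean was 17.9 ± 9.87 (SD, n = 6) in *Tbx5*G125R/+ and 75.5 ± 35.8 (SD, n = 5) in control, which is 4.23-fold lower in *Tbx5*G125R/+. The bin rested on 170 reads in *Tbx5*G125R/+ libraries and 306 reads in control libraries. This difference was larger than in 62.6% of the 313 bins with a lower mean level, whose median was 3.42-fold. The values cannot say whether the acetylation belongs to *Tgfb2*, to *Gm35546* or to both, since the bin lies in *Gm35546* and *Tgfb2* is the nearest protein-coding gene by the rule alone.

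Farther out on the same side of *Tgfb2*, at distances that the 100 kb limit leaves out, were a pair of regions with the opposite direction. *Tgfb2* was still their nearest protein-coding gene, at 210 kb and 224 kb, and their top bins were 14.5 kb apart, the nearer one within the long noncoding RNA gene *Gm35341*. In the bin at 210 kb the *Tbx5*G125R/+ libraries had 6.36, 33.0, 14.3, 28.9, 24.1 and 28.2 normalised reads, against 4.26 in control replicate 1 and 0 in the other 4 controls. In the bin at 224 kb they had 16.1, 23.5, 26.2, 23.7, 8.75 and 12.5, against 2.13 and 1.12 in control replicates 1 and 3 and 0 in the other 3 controls. The groups did not overlap in either bin.

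The bin at 210 kb averaged 22.5 ± 10.1 (SD, n = 6) in *Tbx5*G125R/+ and 0.852 ± 1.91 (SD, n = 5) in control, a 26.4-fold higher level that rested on 4 control reads, all of them from replicate 1. In the bin at 224 kb the ratio of pooled reads was 28.9 (95% exact counting interval 9.72 to 142), with 3 control reads. *Tgfb2* was thus flanked on 1 side by a bin that was lower and by a pair 177 kb and 191 kb away from that bin that was higher in *Tbx5*G125R/+.

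*Tgfb3* encodes another ligand of the same receptors. Its top bin had 6.36, 37.4, 6.23, 21.7, 30.6 and 11.5 normalised reads in *Tbx5*G125R/+ replicates 1 to 6, against 0 in each of the 5 control libraries. All *Tbx5*G125R/+ libraries held reads here, from 10 reads in replicate 3 to 67 in replicate 2, and their levels spread over 6.00-fold. With 147 reads against none, the mean of 19.0 ± 13.1 (SD, n = 6) was at least 28.6-fold higher than the 0.662 normalised reads that correspond to 3 reads over all control libraries. Counting error in the *Tbx5*G125R/+ reads is not in this bound, and the exact 95% counting interval of the ratio of pooled reads began at 20.3. This bin was 1 of 81 listed bins without any control read, and its *Tbx5*G125R/+ level was low for a bin with a higher mean, above only 16.1% of the 1339 such bins, whose median was 30.5.

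*Ltbp1* encodes the binding protein that holds latent TGF-β in the matrix. In its bin between the starts the *Tbx5*G125R/+ libraries had 47.9, 68.2, 50.5, 34.1, 41.6 and 54.2 normalised reads, against 8.52, 7.49, 16.9, 9.69 and 23.4 in the control libraries. This was the one member bin with a higher level that held reads in every control library, and the lowest *Tbx5*G125R/+ library still stood 10.7 above the highest control. The mean was 49.4 ± 11.6 (SD, n = 6) in *Tbx5*G125R/+ and 13.2 ± 6.79 (SD, n = 5) in control, which is 3.74-fold higher. The log2 ratio was 1.90, and 0.23 with TMM factors, the smallest of the 5 bins under either scaling when the sign is set aside. The control level was above that of 84.8% of the bins with a higher mean, and the fold was larger than in only 7.17% of them, whose median was 13.2-fold.

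The *Ltbp1* bin after the inner start had little signal in controls. It had 33.3, 22.3, 26.8, 20.6, 13.1 and 26.6 normalised reads in *Tbx5*G125R/+ replicates 1 to 6, against 2.13 and 4.77 in control replicates 1 and 2 and 0 in the other 3. The mean was 23.8 ± 6.82 (SD, n = 6) in *Tbx5*G125R/+ and 1.38 ± 2.11 (SD, n = 5) in control, a 17.2-fold higher level that rested on 9 control reads, 7 of them from replicate 2. Without control replicate 2 the log2 ratio was 5.48 in place of 4.11. The bins were 61.8 kb apart, and the one between the starts had the higher level in both genotypes.

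*Ski* encodes the corepressor that binds Smad complexes. Its top bin had 15.2, 3.91, 45.5, 15.5, 39.4 and 21.9 normalised reads in *Tbx5*G125R/+ replicates 1 to 6, against 2.13 in control replicate 1 and 0 in the other 4 controls. The lowest *Tbx5*G125R/+ library, replicate 2, stood close to control replicate 1, with 7 reads against 2 reads, and the *Tbx5*G125R/+ levels spread over 11.6-fold, the widest spread of the 5 bins. The mean was 23.6 ± 15.9 (SD, n = 6) in *Tbx5*G125R/+ and 0.426 ± 0.953 (SD, n = 5) in control. The ratio of pooled reads, 186 against 2, was 48.0 (95% exact counting interval 13.1 to 399), and without control replicate 1 no control read was left. The log2 ratio of means was 5.79, and without that library at least 4.82. This interval, and those at *Tgfb3* and in the *Tgfb2* bin at 224 kb, cover counting error only and leave out the spread between libraries. Copies of 1 fragment made by amplification are not independent either. The bins were chosen on this same genotype difference, so that an interval lying away from 1 was fixed by that choice and is no evidence.

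The 5 bins differed in how evenly the *Tbx5*G125R/+ libraries carried the signal. The SD was 23.5% of the mean in the *Ltbp1* bin between the starts and 28.7% in the one after the inner start, below the median of 42.7% over all bins with a higher mean. It was 69.2% at *Tgfb3* and 67.3% at *Ski*, above that median, and 55.2% at *Tgfb2*, above the median of 39.1% over the bins with a lower mean. The libraries also ranked differently from bin to bin. *Tbx5*G125R/+ replicate 2 was the highest of its genotype at *Tgfb2*, *Tgfb3* and the *Ltbp1* bin between the starts and the lowest at *Ski*, whereas replicate 3 was the highest at *Ski* and the lowest at *Tgfb3*. No single *Tbx5*G125R/+ library therefore carried all the higher levels.

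**Figure D3:**
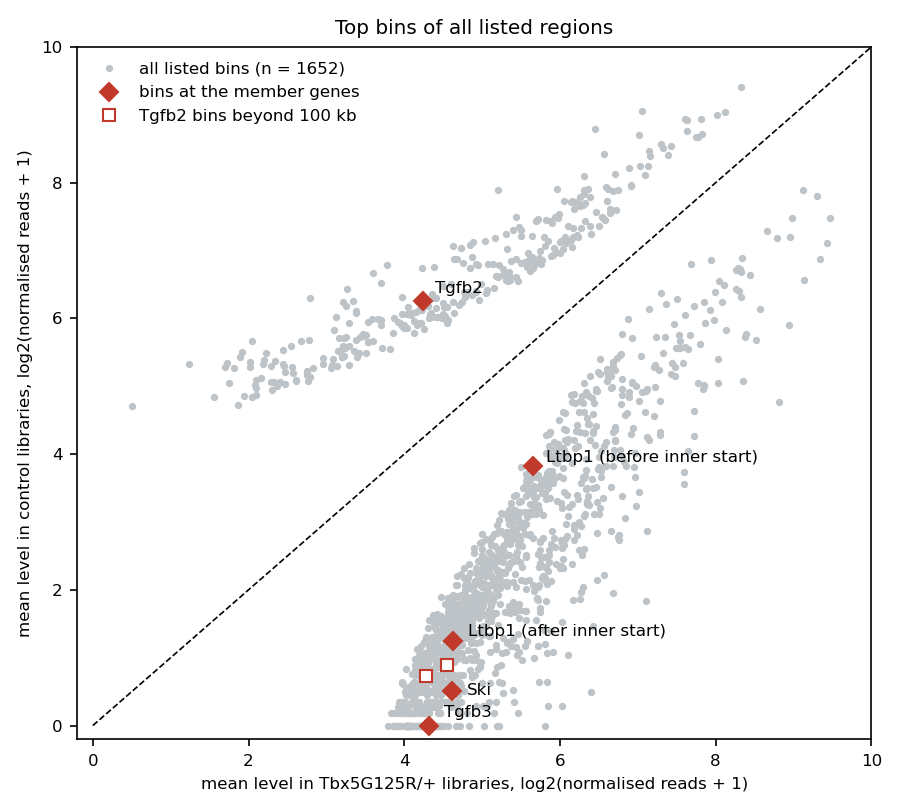
Mean level of each of the 1652 listed top bins in *Tbx5*G125R/+ libraries (x axis) and in control libraries (y axis), both as log2(normalised reads + 1), with the line of equal levels dashed. Filled diamonds are the bins at *Tgfb2*, *Tgfb3*, *Ltbp1* and *Ski*, open squares are the *Tgfb2* bins beyond 100 kb. The empty band along the line reflects that only called regions are listed. *Tgfb3*, *Ski* and the *Ltbp1* bin after the inner start sit near the bottom, at control levels of 0 to 1.38 normalised reads, and the other *Ltbp1* bin sits higher, at 13.2.

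The bins with the most similar profile over the 11 libraries were found by the root mean square difference of centred log2(normalised reads + 1) values, in which 0 means identical profiles. For *Tgfb2* they lay in *Mlip* (0.50), near *Kcnk3* (0.51) and in *Zhx2* (0.55), against a median of 2.95 over all other bins, of which most have the opposite direction. For the other members, which share the direction of most bins, this median was 1.22 to 1.43. *Mlip* encodes a protein of the muscle nuclear lamina, and *Kcnk3* an atrial potassium channel. For the *Ltbp1* bin after the inner start they lay in *Bicc1* (0.23), *Susd1* (0.27) and *Diaph1* (0.33), and for the bin between the starts in *Dlc1* (0.36) and nearest to *Mn1* (0.45). *Tgfb3* was closest to bins nearest to *Podn* (0.53) and *Cldn34b3* (0.54), and *Ski* to bins nearest to *Gbp7* (0.50), *Lrrc55* (0.52) and *Dapk1* (0.56). All libraries are shared between these bins and the genotype difference takes up most of each profile, so the distances describe likeness of pattern only.

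Of the other TGF-β pathway genes examined, 7 of 49 had a listed region, with 9 regions in all, each higher in *Tbx5*G125R/+ and each without overlap between the genotypes. Of all 21900 protein-coding genes 5.68% had a listed region by the same rule, 4.60% a higher and 1.16% a lower one, and of all listed regions 81.1% were higher and 73.2% higher without overlap. The genes were not matched for length or activity, so nothing particular to the pathway can be read from these counts. With TMM factors all 9 kept their direction and all 9 came to overlap. The regions were at genes of storage, activation and inhibition and at 1 target. No region was assigned to *Tgfb1*, to any of the 5 receptors and co-receptors (*Tgfbr1*, *Tgfbr2*, *Tgfbr3*, *Eng* and *Acvrl1*) or to any of the 6 signal carriers, among them *Smad2*, *Smad3* and *Smad4*. Regions that were not called are not in the table, so these genes may carry H3K27ac that was not listed.

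Among storage genes, *Fbn1*, which encodes the fibrillin that Ltbp1 binds, had 30.5 to 119 normalised reads in *Tbx5*G125R/+ (median 99.3), against 0 to 12.8 in control (median 9.54). Its mean level of 90.4 ± 34.0 (SD, n = 6) in *Tbx5*G125R/+ and 8.25 ± 4.96 (SD, n = 5) in control was the highest *Tbx5*G125R/+ mean of the 14 bins at genes of the pathway. Storage was represented by 3 regions at 2 of 9 genes, all higher in *Tbx5*G125R/+, and 2 of these regions are those of the member *Ltbp1*. Of all protein-coding genes 5.68% had a listed region, and 81.1% of the listed regions were higher. With TMM factors the 3 storage bins kept their direction and came to overlap.

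Of 11 genes of activation 3 had a listed region, all higher. Of all protein-coding genes 5.68% had a listed region, and 81.1% of the listed regions were higher. Among the integrin subunits that free the ligand from its latent complex, *Itgav* and *Itgb8* had 3 regions. The other integrin genes looked at, *Itgb1*, *Itgb3*, *Itgb5* and *Itgb6*, had none. The 2 bins in *Itgav*, which encodes the αv subunit, averaged 32.3 ± 11.7 and 44.3 ± 10.4 in *Tbx5*G125R/+ (SD, n = 6), against 5.73 ± 3.78 and 13.0 ± 6.22 in control (SD, n = 5). The bin in *Itgb8*, which encodes the β8 subunit that pairs with αv, averaged 23.4 ± 15.3 in *Tbx5*G125R/+ and 1.68 ± 1.84 in control, with 8 control reads in all. *Plg*, the gene of the protease precursor plasminogen, averaged 36.3 ± 5.80 in *Tbx5*G125R/+ and 7.19 ± 4.27 in control. The folds of these 4 bins ran from 3.40 to 13.9.

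Inhibitors besides *Ski* were *Dcn*, which encodes the ligand-binding proteoglycan decorin, and *Pmepa1*, which encodes a membrane protein that sequesters Smads. The *Dcn* bins, 97.2 kb and 40.0 kb from the gene, were 6.35-fold and 6.15-fold higher in *Tbx5*G125R/+, and the *Pmepa1* bin, 62.3 kb away, 6.14-fold higher. Of 9 target genes, *Postn*, which encodes the matrix protein periostin, had a bin 89.7 kb away with 55.2 ± 22.3 (SD, n = 6) in *Tbx5*G125R/+ and 3.49 ± 4.82 (SD, n = 5) in control. Among all 14 bins of the pathway the *Tgfb2* bin was the only one with a lower mean in *Tbx5*G125R/+, where 18.9% of all listed bins were lower.

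**Figure D4:**
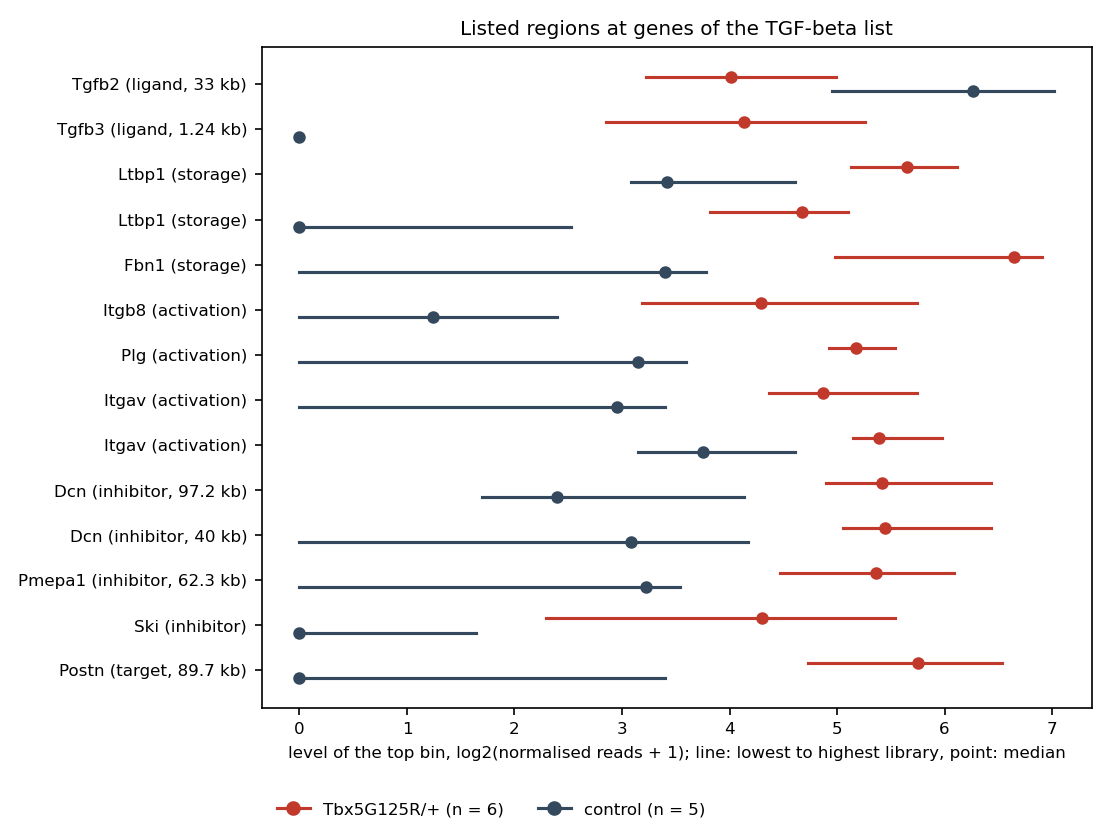
Level of the top bin at each gene of the TGF-β list that had a listed region, as log2(normalised reads + 1). Points are medians and lines run from the lowest to the highest library (*Tbx5*G125R/+ red, n = 6, control dark, n = 5), and the labels give the gene, its role and, where the bin is outside the gene, the distance. *Tgfb2* is the one row in which the *Tbx5*G125R/+ median lies below the control median, and the one in which the lines meet.

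Matrix and TGF-β storage genes are typical of fibroblasts, and listed regions at marker genes of other cell types moved with the genotype as well. Their counts stand beside the same background, in which 5.68% of protein-coding genes had a listed region and 81.1% of the regions were higher and 18.9% lower. Of 8 fibroblast markers 5 had a listed region, 7 regions in all (*Pdgfra*, *Col1a2*, *Dcn*, *Lum* and *Postn*), each higher in *Tbx5*G125R/+, with summed levels of 279 to 477 in *Tbx5*G125R/+ libraries and 9.75 to 66.5 in control libraries. *Dcn* and *Postn* are in the TGF-β list too. Of 8 endothelial markers 3 had a region, 6 regions higher (*Kdr* and *Cdh5*) and 1 lower (*Erg*), with sums of 594 to 871 in *Tbx5*G125R/+ and 164 to 408 in control. Smooth muscle and leukocyte markers had 1 region each, *Rgs5* and *Mrc1*, both higher, with sums of 2.19 to 28.9 in *Tbx5*G125R/+ and 0 to 1.38 in control for *Rgs5* and of 11.7 to 32.3 in *Tbx5*G125R/+ and 0 to 4.09 in control for *Mrc1*. The 4 epicardial markers had none within 100 kb. Beyond that limit, and not counted among the marker bins here, a bin 113 kb from the epicardial marker *Tbx18* averaged 41.0 in *Tbx5*G125R/+ and 7.43 in control. Of 8 CM markers *Ryr2* and *Actn2* had 3 regions, all lower, with sums of 235 to 333 in *Tbx5*G125R/+ and 587 to 909 in control. With TMM factors a pair of the *Kdr* bins changed direction, with log2 ratios of -0.16 and -0.17, and the other marker bins kept theirs. Marker bins higher without overlap were then 2 in place of 14, and those lower without overlap 4 in place of 2. Among them were 1 of the 7 fibroblast bins, higher, and all 3 CM bins, lower, so the separation of the genotypes depends on the scaling. The part of these differences in the levels at *Tgfb2*, *Tgfb3*, *Ltbp1* and *Ski* was not tested, and CM identity could not be checked on markers outside the listed regions.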

How the data were processed

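The table of called regions was read for 6 *Tbx5*G125R/+ and 5 control libraries. BWA, bedtools, DESeq2 and build mm10 stand in the submitters' processing notes, without versions in the sources used here. The deposited signal is, per the file headers, the normalised count of the top bin. The authors' deposited log2 fold change and adjusted p-value hold their own comparison and were not used, and directions come from mean top-bin levels. The genes and lists were chosen with earlier results of these data known. All regions assigned to the 4 genes are described, listed genes are named wherever they had a region, and up to 3 most similar bins are named for each member bin, some of which are not reported here.

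Deposited values were whole multiples of 1 step per library (100% of 18172 values within 0.05 reads), so reads were recovered. Size factors were 0.457 to 2.04 in *Tbx5*G125R/+ and 0.513 to 1.47 in control. Ratios are those of means, with 3 reads over the group where no control held a read. A count test was run on the recovered reads of the whole table (edgeR 4.0.16, quasi-likelihood, R 4.3.3). It reuses the contrast that chose the regions, so its outcome is fixed by that choice, it gives no evidence on them and no calls of single regions are given. It called 1339 regions higher (81.1%) and 313 lower (18.9%), all 1652, with Benjamini-Hochberg adjustment over the table at 0.05. The series design counts the libraries as separate mice. Other alternatives were DESeq2 1.42.0, other scalings, a filter on low counts, a block for replicate number and each library left out. Bin sequences were not analysed here. RefSeq starts of GRCm38.p6 matched *Tgfb2*, *Ltbp1* and *Ski*.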

Additional observations from a re-analysis of the deposited data

Results flagged for a closer look

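Of 13 sets of libraries looked at, 2 held a library far from the others. In both sets all other libraries stood at 0, where a chance rate of about 1 in 20 does not apply. No excess over chance can therefore be read from this count. In the *Ski* bin, control replicate 1 had 2.13 normalised reads and the other control libraries 0, and in the *Tgfb2* bin at 210 kb the same library had 4.26 and the others 0. They correspond to 2 and 4 reads.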

How the results depend on the processing

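Member ratios kept their direction under every alternative run. Of 80 recomputed log2 ratios 71 moved by less than the SD between libraries. TMM factors on the listed bins, which shifted all log2 ratios by a median of -1.75, gave -3.77 for *Tgfb2*, 3.07 for *Tgfb3*, 0.23 and 2.36 for *Ltbp1* before and after the inner start and 3.96 for *Ski*, with 1 bin higher and 1 lower without overlap. They left 781 regions called as higher by edgeR. Means of log2(level + 1) gave 4.02 for *Tgfb3* and 3.96 for *Ski*, and medians gave 5.21 for *Ltbp1* after the inner start. Without 1 library in turn, log2 ratios ran from -2.30 to -1.80 for *Tgfb2*, 4.28 to 5.02 for *Tgfb3*, 1.76 to 2.21 and 3.79 to 5.48 for *Ltbp1* and 4.82 to 6.01 for *Ski*, where the lowest is without control replicate 1. The number of bins without overlap stayed at 4 higher, and was 0 to 1 lower, with *Tgfb2* counted once replicate 2 of either genotype was left out. With the gene body as the limit 3 regions remained, both at *Ltbp1* and the one at *Ski*, and within 25 kb 4. With the whole region in place of the top bin 4 remained, since the one at *Tgfb3* was then nearer to *Ttll5*. Beyond 100 kb, the bin at 224 kb had a log2 ratio of 4.83, and of 6.04 without control replicate 1.

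The replicate number as a block (replicate block) left 1339 regions called as higher and 312 as lower by edgeR. Deviations of libraries with the same number correlated at -0.15 to -0.017 over 5 pairs, so no sign of pairing by number was seen. The check used the listed bins only and cannot exclude that equal numbers were handled together. Low depth limits *Ski*, *Tgfb3* and both outer *Tgfb2* bins, where controls held 0 to 4 reads.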
